A study of Homo sapiens with 6 samples.

Results

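The genes examined encode the machinery of store-operated calcium entry and the inositol trisphosphate (IP3) receptors, namely STIM1, STIM2, ORAI1, ORAI2, ORAI3, SARAF, ITPR1, ITPR2 and ITPR3. They were taken from the deposited count table by their symbols, and all 9 were found among its 63140 genes. IP3 receptors, encoded by the ITPR genes, are channels that release calcium from the endoplasmic reticulum (ER) after phospholipase C has made IP3 from a plasma membrane phosphoinositide. When the store empties, the STIM proteins of the ER membrane sense the loss, move to contacts with the plasma membrane, bind its phosphoinositides with a basic tail and open ORAI channels. SARAF is an ER membrane protein that slows this entry and shuts it down once calcium has risen.

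The study treated HEK293 cells, an established human cell line of embryonic kidney origin, with GSK-A1, a compound that blocks the lipid kinase encoded by PI4KA, phosphatidylinositol 4-kinase alpha, which makes the plasma membrane phosphoinositide from which the substrate of phospholipase C is derived. The inhibitor was given to confluent cells at 100 nM for 24 h, and controls had its solvent dimethyl sulfoxide (DMSO) instead. There were 3 libraries per group, labelled as biological replicates. Both groups were the same cell line with no genetic change given in the labels, so each comparison is of 1 line at 1 dose and 1 time.

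Libraries held 33040178 to 47777233 counts, of which 10964 to 17113 fell on the 9 genes. GSK-A1 replicate 2 stood apart. Its correlation with the other GSK-A1 libraries across tested genes was 0.994 and 0.995, against 0.997 between GSK-A1 replicates 1 and 3, and its share of mitochondrial counts was 4.04%, against 5.12% to 5.68% in the other 5. GSK-A1 blocks the PI4KA protein, so the mRNA does not check the labels; its level in CPM (counts scaled to a common effective library total) was 187, 179 and 188 in the DMSO libraries and 182, 171 and 184 in the GSK-A1 libraries, here and later in the order of replicates 1 to 3 (edgeR adjusted p = 0.456). Of 8 genes listed as HEK293 markers, 6 were at 1 CPM or more in every library, while the neurofilament genes NEFM and INA were under 1 CPM in all. The 4 endothelial, 5 leukocyte and 4 hepatocyte markers were all under 1 CPM in every library. Of 6 fibroblast markers 4 were under 1 CPM, COL1A2 among them at 0, and the summed level of the list was 16.7 to 17.8 CPM with DMSO and 10.3 to 12.7 CPM with GSK-A1. COL3A1 alone went from a mean of 9.68 to 5.49 CPM. The summed HEK293 markers stood at 2036 to 2109 CPM with DMSO and at 2182 to 2373 CPM with GSK-A1, a sum in which VIM made up the most (mean 1084 and 1216 CPM, called higher). The members went both ways: KRT8 was also called higher (146.8 and 158.6 CPM), PAX2 was called lower (2.71 and 2.00 CPM), and NEFL, LHX1 and KRT18 were not called. The part of these differences in the results on calcium genes was not tested.

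Of the 9 calcium genes, SARAF alone was called higher with GSK-A1, and none was called lower. All 9 passed the filter on low counts and were tested with edgeR's quasi-likelihood test, with p-values adjusted by the Benjamini-Hochberg method over the 16754 genes tested and a call made under 0.05. The 1 call among 9 compares with 22.9% of all tested genes called, 12% higher and 10.9% lower. Without DMSO replicate 1, 2 or 3 that share was 12.9%, 13.2% or 12.7%, and SARAF was still the member called. The median log2 fold change of the 9 was -0.06, against -0.01 over all tested genes. The GSK-A1 and DMSO libraries did not overlap in CPM for 5 of the 9, against 40.5% of all tested genes. Of these, 3 were higher, against 20.2% of all tested genes, and 2 lower, against 20.4%. At an unadjusted p under 0.05, SARAF alone passed, against 35.8% of all tested genes. DESeq2 and limma-voom each called SARAF and no other of the 9 at the same threshold.

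**Figure D1:**
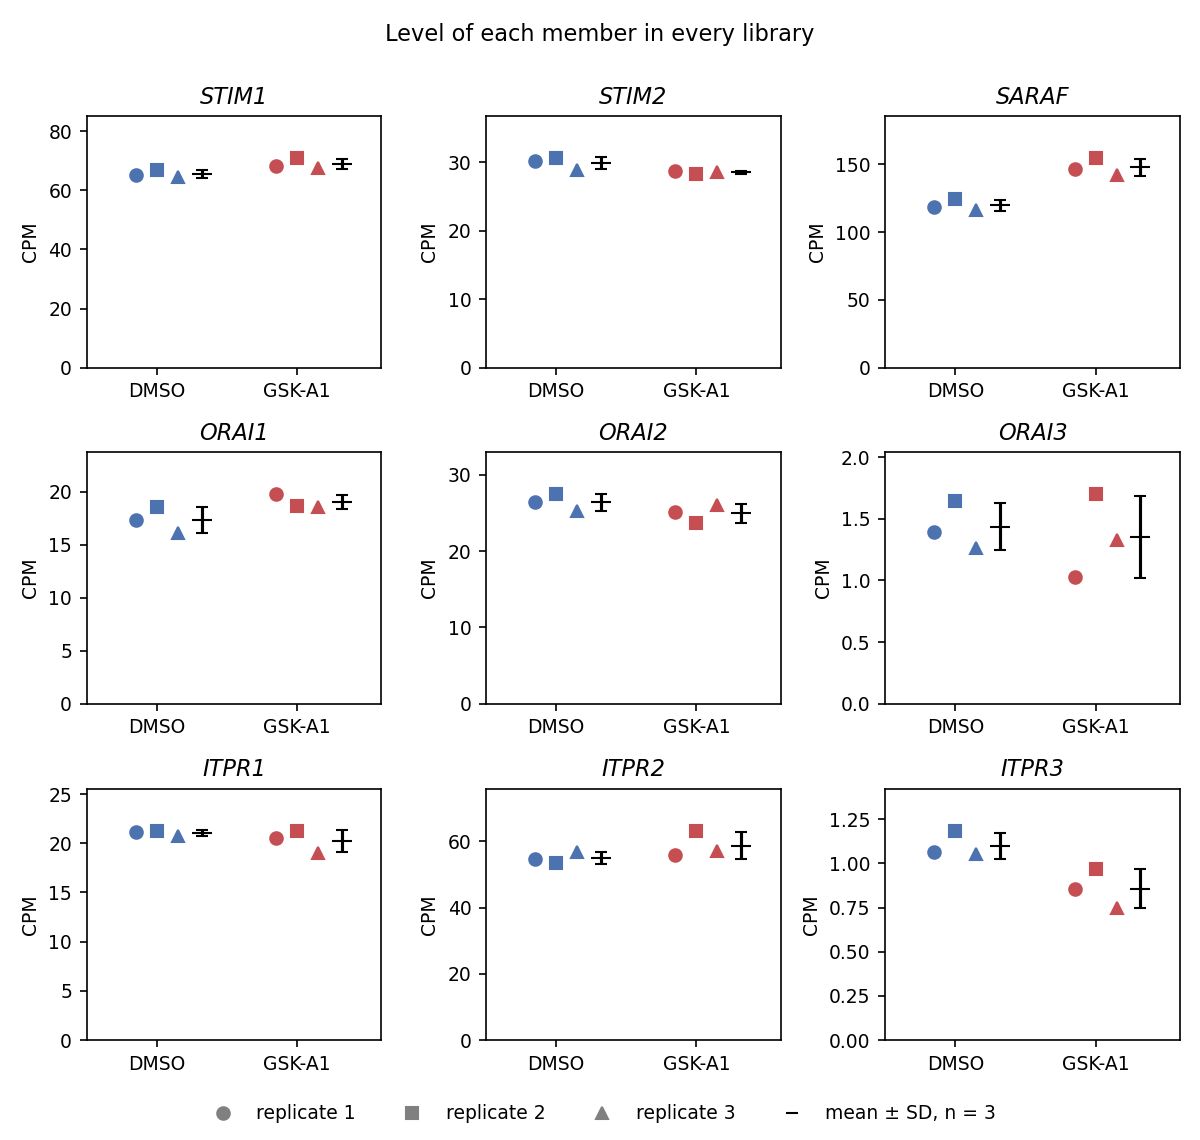
Level of each of the 9 genes in CPM (vertical axes, starting at 0) in the 3 DMSO and 3 GSK-A1 libraries, with the mean and SD of each group beside the points. The SARAF libraries were separated by 17.4 CPM between the highest DMSO and the lowest GSK-A1 library, and ORAI3 and ITPR3 lay below 2 CPM throughout.

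SARAF (ENSG00000133872; GRCh38 chromosome 8, 30063012 to 30083208, minus strand), the inactivator of the pathway, had the most counts of the 9 genes. It stood at 118, 124 and 116 CPM with DMSO and at 147, 155 and 142 CPM with GSK-A1. Every GSK-A1 library lay above every DMSO library. The group means were 119.7 ± 4.2 and 147.7 ± 6.4 CPM (SD, n = 3). The increase was 23.4%, or 0.30 ± 0.04 on the log2 scale (SE; 95% interval 0.21 to 0.39; edgeR adjusted p = 1.04e-04). As the libraries came from whole cultures, more SARAF mRNA per cell and more cells that carry it cannot be told apart. The rise ranked 260 by p-value among the 16754 tested genes, and 490 of the 2007 genes called higher, or 24.4%, had a fold change of at least this size. Without GSK-A1 replicate 2, the library that stood apart and the highest for SARAF, the log2 fold change was 0.27 (edgeR adjusted p = 5.87e-10). Exons of an antisense gene on the other strand (ENSG00000272256) covered 12.1% of the exonic length of SARAF. That gene stood at no more than 0.150 CPM in any library. The level of SARAF is uncertain over the shared stretch if counting ignored strand. No 50-base stretch of the longest SARAF transcript occurred in the transcripts of another gene.

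The calcium sensors STIM1 and STIM2 lay on opposite sides of their control levels by amounts that did not pass the test. STIM1 (ENSG00000167323; chromosome 11, 3854527 to 4093210, plus strand), the main activator of ORAI channels, stood at 65.1, 66.8 and 64.3 CPM with DMSO and at 68.3, 70.8 and 67.5 CPM with GSK-A1. The groups did not overlap, by a margin of 0.707 CPM. Its difference in log2 CPM was 0.07 ± 0.04 (SE; 95% interval -0.01 to 0.16; edgeR adjusted p = 0.206). STIM2 (ENSG00000109689; chromosome 4, 26857678 to 27025381, plus strand), which responds to smaller losses of store calcium, stood at 30.1, 30.6 and 28.8 CPM with DMSO and at 28.7, 28.2 and 28.6 CPM with GSK-A1. Here the GSK-A1 libraries were the lower ones, by a margin of 0.130 CPM. Its difference in log2 CPM was -0.07 ± 0.05 (SE; 95% interval -0.17 to 0.04; edgeR adjusted p = 0.351).

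None of the pore-forming channel genes passed the test either. ORAI1 (ENSG00000276045; chromosome 12, 121626550 to 121642677, plus strand) encodes the pore of the classical calcium release-activated channel. It stood at 17.3, 18.5 and 16.1 CPM with DMSO and at 19.7, 18.6 and 18.6 CPM with GSK-A1. All GSK-A1 libraries were higher, but DMSO replicate 2 came within 0.0555 CPM of the lowest of them. Its difference in log2 CPM was 0.13 ± 0.06 (SE; 95% interval -0.00053 to 0.26; edgeR adjusted p = 0.141). It was 0.088 without DMSO replicate 3. STIM1 and ORAI1 were both called higher, at 0.12 and 0.20 (edgeR adjusted p = 0.0393 and 0.0181), when the trend of each library with GC content was removed, a setting under which 25.3% of all tested genes were called. GC content of the longest transcript was 56.2% for STIM1 and 61.7% for ORAI1, against 45.7% for SARAF.

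ORAI2 (ENSG00000160991; chromosome 7, 102433106 to 102456821, plus strand), a channel subunit that lowers the current when it joins ORAI1, stood at 26.4, 27.4 and 25.3 CPM with DMSO and at 25.2, 23.6 and 26.0 CPM with GSK-A1. GSK-A1 replicate 3 lay within the DMSO range, so the groups overlapped. Its difference in log2 CPM was -0.08 ± 0.06 (SE; 95% interval -0.20 to 0.03; edgeR adjusted p = 0.307). It was -0.045 without GSK-A1 replicate 2 and -0.053 without DMSO replicate 2. ORAI3 (ENSG00000175938; chromosome 16, 30949066 to 30956461, plus strand), the third channel paralog, was counted 42 to 75 times per library. It stood at 1.40, 1.65 and 1.27 CPM with DMSO and at 1.03, 1.70 and 1.33 CPM with GSK-A1, with GSK-A1 replicates 1 and 2 below and above all controls. Its difference in log2 CPM was -0.14 ± 0.19 (SE; 95% interval -0.54 to 0.26; edgeR adjusted p = 0.647), the widest interval of the 9. Without GSK-A1 replicate 1 the sign turned, to 0.065, and leaving out replicate 2 gave -0.023 for the DMSO library and -0.32 for the GSK-A1 library. An overlapping gene on the same strand (ENSG00000261487), listed at 0 counts in all 6 libraries, covered 52.9% of the exonic length of ORAI3, so the level of ORAI3 is uncertain.

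**Figure D2:**
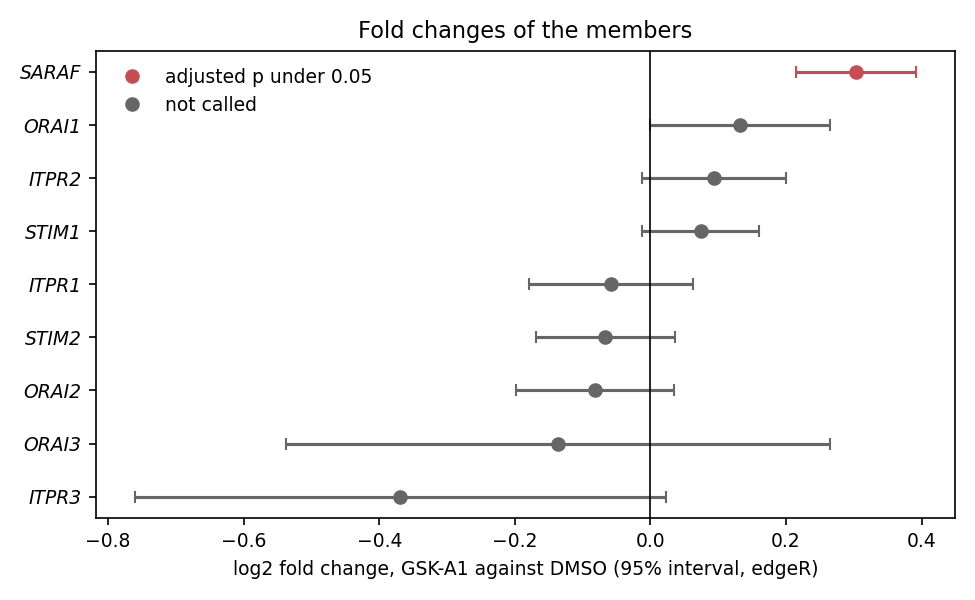
Log2 fold change with GSK-A1 against DMSO (horizontal axis) for each of the 9 genes, with its 95% interval from edgeR, n = 3 libraries per group; red marks an adjusted p under 0.05. The interval of SARAF, 0.21 to 0.39, lies above 0, and the intervals of the other 8 genes include 0.

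Among the IP3 receptors, ITPR2 (ENSG00000123104; chromosome 12, 26336515 to 26833198, minus strand), the paralog with the highest affinity for IP3, gave the most counts. It stood at 54.7, 53.4 and 56.9 CPM with DMSO and at 55.9, 63.3 and 57.1 CPM with GSK-A1. GSK-A1 replicate 1 lay within the DMSO range, and GSK-A1 replicate 2 was the highest. Its difference in log2 CPM was 0.09 ± 0.05 (SE; 95% interval -0.01 to 0.20; edgeR adjusted p = 0.190). It was 0.04 (edgeR adjusted p = 0.422) without GSK-A1 replicate 2. ITPR1 (ENSG00000150995; chromosome 3, 4493345 to 4847840, plus strand), the receptor best known from cerebellar Purkinje cells, stood at 21.1, 21.3 and 20.7 CPM with DMSO and at 20.5, 21.2 and 19.0 CPM with GSK-A1. The groups overlapped, and its difference in log2 CPM was -0.06 ± 0.06 (SE; 95% interval -0.18 to 0.06; edgeR adjusted p = 0.5). It was -0.012 without GSK-A1 replicate 3, the lowest library. ITPR3 (ENSG00000096433; chromosome 6, 33620365 to 33696574, plus strand), the paralog typical of epithelia, was the scarcest, with 27 to 54 counts per library.

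ITPR3 stood at 1.06, 1.19 and 1.06 CPM with DMSO and at 0.858, 0.966 and 0.748 CPM with GSK-A1. All GSK-A1 libraries were below all DMSO libraries, by a margin of 0.0894 CPM. The log2 fold change of -0.37 ± 0.19 (SE) was the largest in size of the 9 in the fit of all 6 libraries but did not pass the test (edgeR adjusted p = 0.164), and its 95% interval ran from -0.76 to 0.02. With standard errors of 0.19 for ITPR3 and ORAI3, against 0.04 for SARAF, a change of the size seen for SARAF was not detectable for these scarce genes at this depth. Exons of UQCC2 on the opposite strand, a gene at 62.8 to 75.8 CPM, covered 10.4% of the exonic length of ITPR3, so its value is uncertain if counting ignored strand.

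Per kilobase of the longest annotated transcript, SARAF stood at 55.6 ± 2.0 CPM per kilobase with DMSO (SD, n = 3) and STIM1 followed at 15.02 ± 0.29. ORAI1 stood at 8.09 ± 0.57, above STIM2 at 5.79 ± 0.18 and ITPR2 at 4.82 ± 0.16. ORAI2 stood at 2.439 ± 0.099 and ITPR1 at 2.064 ± 0.029, followed by ORAI3 at 0.651 ± 0.088 and ITPR3 at 0.1116 ± 0.0074. On this scale neighbours in the order did not overlap among the DMSO libraries, so that ORAI1 led its family although ORAI2 had more counts. With GSK-A1 the order of the means was the same, but STIM2, at 5.48 to 5.56, overlapped with ITPR2, at 4.90 to 5.55. The level of ITPR1 depended on the length used, since its exons cover 32454 bases in all against 10197 in its longest transcript. With all annotated exons as the length, ITPR1 stood at 0.6485 ± 0.0091 CPM per kilobase with DMSO, close to ORAI3 at 0.544 ± 0.073, and the DMSO ranges of STIM2 and ITPR2 overlapped.

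**Figure D3:**
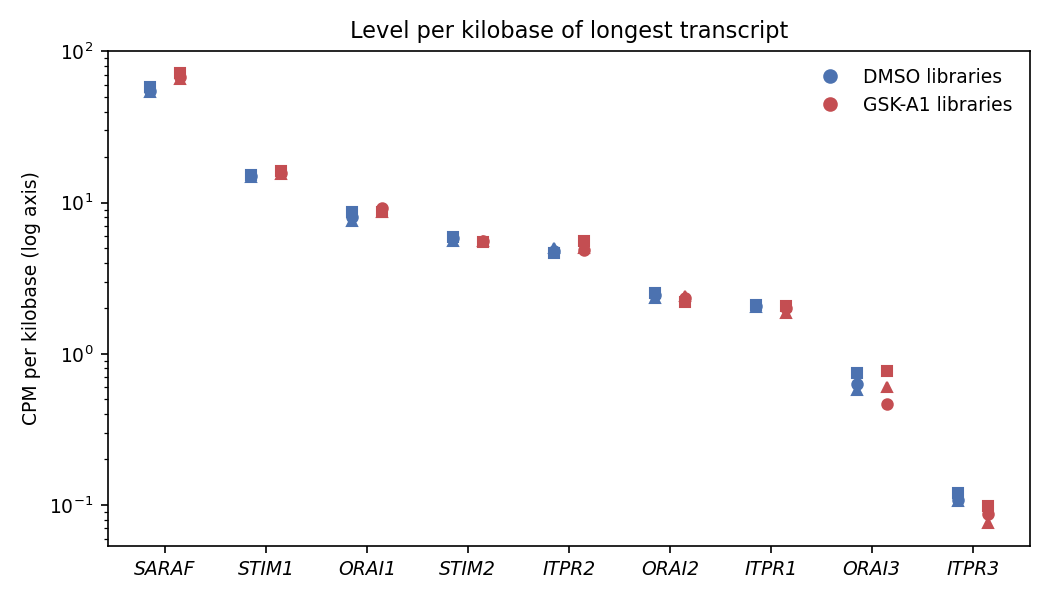
CPM per kilobase of the longest annotated transcript (log axis) for the 9 genes in the 3 DMSO and 3 GSK-A1 libraries, ordered by the DMSO mean. SARAF lies near 55.6 with DMSO and ITPR3 near 0.112, with ORAI1 above ORAI2 and ITPR2 above ITPR1.

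To compare family members without any library scaling, the ratio of their counts was taken within each library. There were 8 such ratios, each tested by exact permutation of the libraries (two-sided, smallest possible p 0.1 at 3 per group), with adjustment over the 8. Several ratios share a gene, so they are not separate results. How often ratios of other gene pairs do not overlap between groups was not computed. Of single tested genes, 40.5% did not overlap. SARAF gave 1.82, 1.86 and 1.81 counts per STIM1 count with DMSO, and 2.15, 2.18 and 2.1 with GSK-A1. The ratio was higher in all 3 GSK-A1 libraries, by 0.23 on the log2 scale (exact permutation p = 0.1, the smallest possible; adjusted p = 0.16). STIM1 gave 2.16, 2.19 and 2.23 counts per STIM2 count with DMSO, and 2.38, 2.51 and 2.36 with GSK-A1. The groups did not overlap, and the difference was 0.14 on the log2 scale (exact permutation p = 0.1; adjusted p = 0.16).

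ORAI1 gave 0.655, 0.675 and 0.636 counts per ORAI2 count with DMSO, and 0.785, 0.789 and 0.714 with GSK-A1, a difference of 0.22 on the log2 scale with no overlap (exact permutation p = 0.1; adjusted p = 0.16). The ratios of ORAI1 and ORAI2 to ORAI3 overlapped between groups, with differences of 0.25 and 0.03 (exact permutation p = 0.5 and 0.9), and both were spread widest among the GSK-A1 libraries. The ORAI1/ORAI3 difference was 0.034 or 0.44 when GSK-A1 replicate 1 or 2 was left out (exact permutation p = 1 and 0.1), so single libraries decided its size. The ORAI2/ORAI3 difference changed sign with the library left out. Among the receptors, the 2 ratios to ITPR3 were the largest differences. ITPR2 gave 45.0 to 53.9 counts per ITPR3 count with DMSO and 65.1 to 76.2 with GSK-A1 (0.46 on the log2 scale), and ITPR1 gave 17.9 to 19.9 with DMSO and 22.0 to 25.3 with GSK-A1 (0.31). Neither of these 2 ratios overlapped between groups (exact permutation p = 0.1 each; adjusted p = 0.16), but both rest on the 27 to 54 counts of ITPR3. ITPR1 against ITPR2 overlapped, at 0.364 to 0.399 and 0.332 to 0.367 (exact permutation p = 0.2; adjusted p = 0.267).

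**Figure D4:**
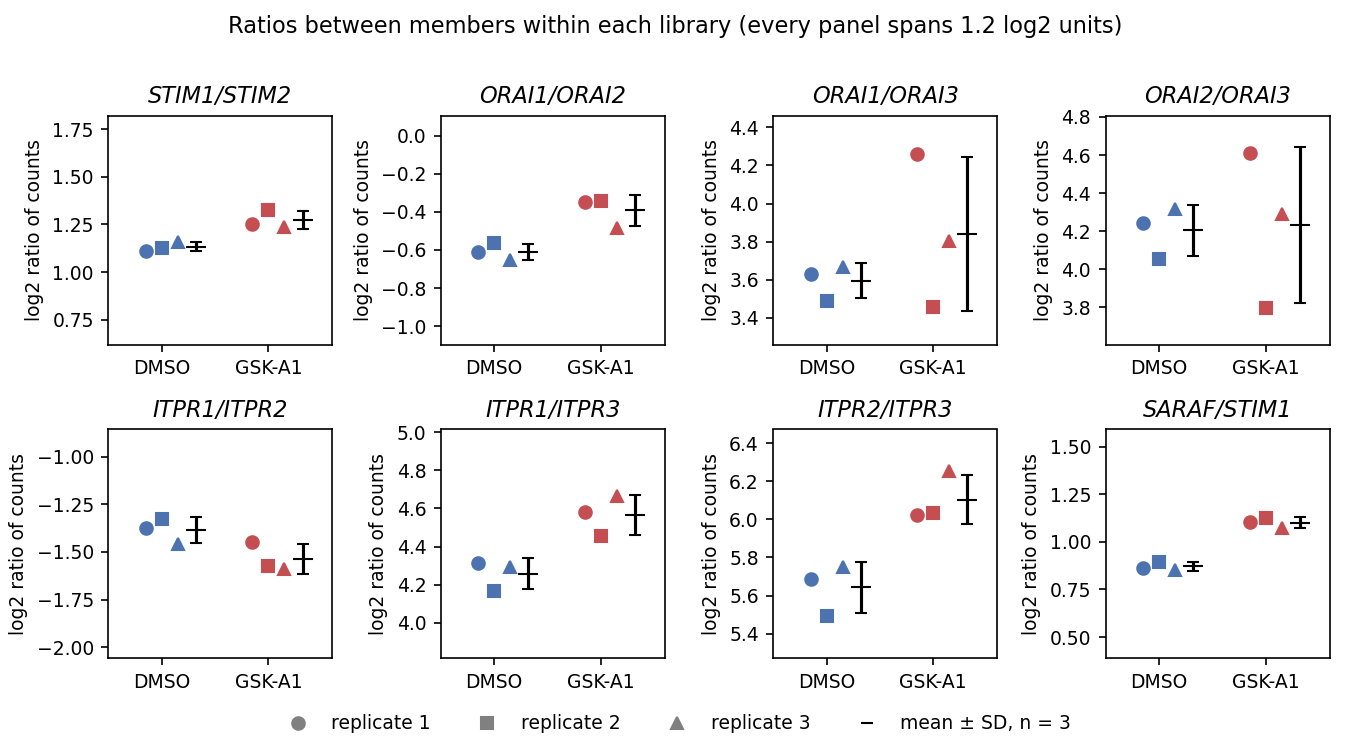
Log2 ratio of counts between 2 of the 9 genes within each library (vertical axes, each spanning the same range), in 3 DMSO and 3 GSK-A1 libraries, with group mean and SD. The groups do not overlap for STIM1/STIM2, ORAI1/ORAI2, ITPR1/ITPR3, ITPR2/ITPR3 and SARAF/STIM1, and ORAI3 gives the widest spread. Some of these ratios share a gene, and the share without overlap among other gene pairs was not computed (40.5% for single tested genes).

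Promoter sequences were looked up because EGR1, an early growth response transcription factor, rose strongly in the same libraries, from 11.19 ± 0.98 to 52.0 ± 2.9 CPM (SD, n = 3; log2 fold change 2.22 ± 0.06, SE; edgeR adjusted p = 4.77e-13), and EGR factors are known to bind GC-rich sites. The RefSeq promoter table (GRCh38.p14) held 9 windows for 6 of the 9 genes. It held none for SARAF, ORAI1 or ITPR2, so the promoter of SARAF, the gene that was called, was not searched. The 250 bases before each annotated start were searched on both strands for the EGR site GCGGGGGCG, which 4.72% of the 35116 windows in the table hold. It occurred in 3 windows of 2 genes, STIM1 and ORAI2. A pair of overlapping STIM1 windows hold the same site, so there were 2 distinct matches, shown here upstream of their starts without annotated exon, on the plus strand, with the match in capitals (for STIM1, which has the site on the minus strand, the letters are its complement read 5′ to 3′).
STIM1, chr11:3855414-3855663: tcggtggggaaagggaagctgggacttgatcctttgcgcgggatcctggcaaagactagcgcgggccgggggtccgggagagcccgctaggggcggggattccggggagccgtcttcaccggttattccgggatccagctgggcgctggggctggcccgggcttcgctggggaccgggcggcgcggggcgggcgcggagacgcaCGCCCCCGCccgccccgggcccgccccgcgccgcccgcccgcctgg
ORAI2, chr7:102433356-102433529: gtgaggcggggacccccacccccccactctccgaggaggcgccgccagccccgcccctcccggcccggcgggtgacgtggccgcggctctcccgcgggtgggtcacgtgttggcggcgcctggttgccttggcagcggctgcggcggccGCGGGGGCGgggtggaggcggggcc
The match ended 38 bases before the annotated start for STIM1 and 62 bases before it for ORAI2. Neither gene was called, and their log2 fold changes were 0.07 and -0.08. With the GC trend removed, STIM1 was called higher, at 0.12 (edgeR adjusted p = 0.0393). Any part of EGR1 in these levels was not tested. The windows are rich in G and C, at 77.2% for the STIM1 stretch and 82.2% for the ORAI2 stretch. A match describes these letters and no binding was measured. No member window held the cyclic AMP response element TGACGTCA or the AP-1 site TGACTCA, which 1.65% and 4.2% of the windows in the table hold. At shares this low, their absence from 9 windows does not set these genes apart.

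The genes whose pattern was most like that of SARAF over the 6 libraries were PRSS23, SENP5 and TMEM50A, by Pearson's correlation of log2 CPM with 10952 genes of at least 5 CPM searched. Each correlated with SARAF at 0.999, a description that includes the difference between groups shared by all points. PRSS23, a secreted protease, went from 44.68 ± 0.96 to 51.5 ± 1.7 CPM (SD, n = 3; edgeR adjusted p = 0.00381). TMEM50A, a membrane protein, went from 98.3 ± 2.2 to 109.4 ± 2.4 CPM (edgeR adjusted p = 0.00880), a call lost without DMSO replicate 3 (0.0657). SENP5, a SUMO protease, stood at 45.33 ± 0.67 and 48.98 ± 0.75 CPM and was not called (edgeR adjusted p = 0.0690). Of the other calcium genes STIM1 was the most alike, at 0.947, with 731 of the searched genes closer to SARAF.

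The wider calcium machinery was read from 6 lists with 91 genes, of which 74 were tested and 23 called, 15 higher and 8 lower. The list of IP3 receptor partners held the most calls, 11 of 17 tested, or 64.7%, against 22.9% of all tested genes, with 8 higher and 3 lower and a median log2 fold change of 0.14. The 11 became 5, 5 and 7 without DMSO replicate 1, 2 or 3, where 12.9%, 13.2% and 12.7% of all tested genes were called. The 11 called partners were measured precisely, with standard errors of 0.030 to 0.057, against a median of 0.065 over all tested genes. In the tested partners that were not called, standard errors ran from 0.034 to 0.187. Whether other genes of like precision are called as often was not tested for any list. All 6 lists were chosen with earlier results of these data known. TMBIM6, an ER membrane protein that lowers store calcium, rose from 687 ± 5 to 803 ± 10 CPM (SD, n = 3; 0.22 ± 0.03 on the log2 scale, SE; edgeR adjusted p = 8.92e-05). ITPRIPL2, a relative of the IP3 receptor-interacting protein, rose from 38.8 ± 1.1 to 46.30 ± 0.32 CPM (0.25 ± 0.04; edgeR adjusted p = 7.76e-04). CALM3, which encodes the calcium sensor calmodulin, fell from 550.0 ± 11.5 to 461.3 ± 9.0 CPM (-0.25 ± 0.03; edgeR adjusted p = 6.22e-05). BCL2L1, which encodes a BCL2 relative that binds IP3 receptors, fell from 23.51 ± 0.22 to 20.3 ± 1.3 CPM (-0.21 ± 0.06; edgeR adjusted p = 0.0145), a call lost without DMSO replicate 1, 2 or 3 (0.0562, 0.0668 and 0.0511). Antisense exons covered 43.0% of the exonic length of BCL2L1.

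**Figure D5:**
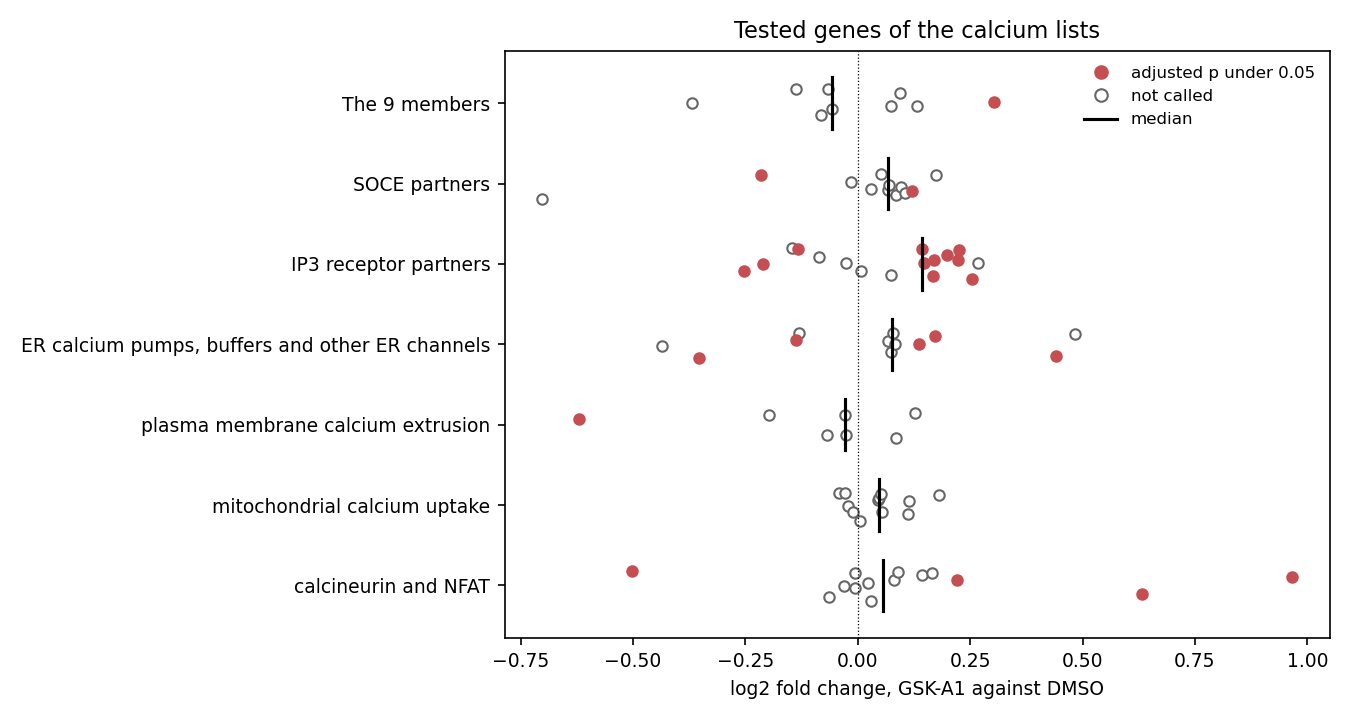
Log2 fold change with GSK-A1 against DMSO (horizontal axis) for the tested genes of each list; filled red points have an edgeR adjusted p under 0.05, and black bars are medians. IP3 receptor partners show 11 filled points of 17, and the 9 genes of the first line show 1.

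Of the ER pumps, buffers and other channels, 5 of 12 tested were called, 3 higher and 2 lower, or 41.7% against 22.9% of all tested genes. The pump that refills the store, ATP2A2, rose from 429.9 ± 2.8 to 484.0 ± 6.2 CPM (SD, n = 3; log2 fold change 0.17 ± 0.03, SE; edgeR adjusted p = 0.00117). The ryanodine receptor RYR2, the other class of ER release channel, fell from 12.34 ± 0.55 to 9.66 ± 0.39 CPM (-0.35 ± 0.07; edgeR adjusted p = 0.00184). HSP90B1, an ER chaperone that binds calcium, rose by 0.14 ± 0.04 (edgeR adjusted p = 0.0257), and CALR, the luminal buffer calreticulin, changed by -0.14 ± 0.04 (edgeR adjusted p = 0.0108). The rise of HSP90B1 was 0.085 without GSK-A1 replicate 2, the library that stood apart. Its call was lost without DMSO replicate 1, 2 or 3 (0.123, 0.0802 and 0.0672) and with upper-quartile factors (0.0873), and that of CALR without DMSO replicate 1 or GSK-A1 replicate 1 (0.0796 and 0.0586). The 5 calls became 2, 3 and 3 without DMSO replicate 1, 2 or 3, where 12.9%, 13.2% and 12.7% of all tested genes were called, and 3 without GSK-A1 replicate 1, where 15.9% were.

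The partners of store-operated entry gave 2 calls among 12 tested, or 16.7%, below the 22.9% of all tested genes. MAPRE1, the microtubule tip protein that carries STIM1, rose from 156.6 ± 2.4 to 170.3 ± 7.9 CPM (log2 fold change 0.12 ± 0.04, SE; edgeR adjusted p = 0.0364), and CAV1, caveolin of the plasma membrane, fell from 18.57 ± 0.31 to 16.0 ± 1.3 CPM (-0.22 ± 0.06; edgeR adjusted p = 0.0235). Both calls were lost without any 1 of the DMSO replicates or GSK-A1 replicate 1, with adjusted p up to 0.138 and 0.136, and that of CAV1 also without GSK-A1 replicate 3 (0.0739) and with DESeq2 (0.0634). The call of MAPRE1 was also lost with upper-quartile factors and with library totals alone. The 2 calls became 0 without any of those 4 libraries. Of the plasma membrane extruders 1 of 7 tested was called, or 14.3%, again below the share of all tested genes. This was the sodium-calcium exchanger SLC8A1, which fell from 9.73 ± 0.51 to 6.307 ± 0.044 CPM (-0.62 ± 0.08; edgeR adjusted p = 4.12e-05). Of the 12 mitochondrial uptake genes 0 were called by edgeR. At an unadjusted p under 0.05 were 3 (MCU, SLC8B1 and VDAC2), against 35.8% of all tested genes. DESeq2 called 1 of the 12, against 22.5% of all genes to which it gave an adjusted p. Without GSK-A1 replicate 2 or 3, edgeR called 2 or 1 of the 12, where 28.1% and 21.9% of all tested genes were called.

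Downstream of calcium entry, 4 of 14 tested genes of calcineurin and its NFAT transcription factors were called, 3 higher and 1 lower. That is 28.6%, close to the 22.9% of all tested genes. RCAN2, which encodes a regulator of calcineurin, rose from 5.54 ± 0.21 to 8.59 ± 0.70 CPM (SD, n = 3; log2 fold change 0.63 ± 0.09, SE; edgeR adjusted p = 9.38e-05). NFATC2 rose from 0.473 ± 0.070 to 0.93 ± 0.11 CPM (0.97 ± 0.22; edgeR adjusted p = 0.00522), still a low level. NFATC2 has no value with the filter of 1 CPM, and DESeq2 gave it no adjusted p. Under each of these settings the list held 3 calls. NFATC4 fell from 14.6 ± 1.3 to 10.27 ± 0.98 CPM (-0.50 ± 0.08; edgeR adjusted p = 4.83e-04). RCAN1, a calcineurin regulator that is itself an NFAT target, stood at 34.2 ± 1.4 and 36.2 ± 1.5 CPM with overlapping groups and was not called (edgeR adjusted p = 0.268). Its count pools all transcripts of the gene, and NFAT activity was not tested.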

How the data were processed

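RNA from 3 DMSO and 3 GSK-A1 cultures of HEK293 was made into stranded TruSeq libraries and sequenced on an Illumina instrument, per the labels' protocols. The deposited table holds raw counts per gene for 63140 genes. The submitters' processing notes name cutadapt 5.1, STAR 2.7.11b, featureCounts of Subread 2.1.1, DESeq2 1.38.0 and the build GRCh38.p13. The strand setting, the annotation release and any filter are not given in the sources used here. All libraries carry the same batch label.

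From the counts, edgeR 4.0.16 (R 4.3.3) fitted the quasi-likelihood model with robust dispersions, TMM factors and filterByExpr (minimum count 10), with Benjamini-Hochberg adjustment over 16754 genes. The standard error is the log2 fold change divided by the square root of the F statistic. CPM uses TMM-adjusted totals. The fit was tested on simulated counts. The biological coefficient of variation was 4.06%. The edgeR p-values weigh the difference between groups against the spread between these cultures of 1 line, estimated with help from other genes. Alternatives were other library factors, count filters, DESeq2 1.42.0, limma 3.58.1 with voom, a replicate block, removal of the GC trend and leaving out each library. Lengths, positions and overlaps came from GENCODE 29 on GRCh38, and promoters from RefSeq.

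The 9 genes, the 6 calcium lists, the marker lists and the motifs were chosen with earlier results of these data known. Named are all 9 genes, up to 2 genes per list and direction with the smallest p-values among those called, the 3 genes of at least 5 CPM most correlated with the member of smallest p, and PI4KA. EGR1, COL3A1, VIM, KRT8, PAX2, RCAN1, MCU, SLC8B1, VDAC2 and the genes of the closing observations were named after their values were seen.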

Additional observations from a re-analysis of the deposited data

How the results depend on the processing

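SARAF stayed called under all 15 alternatives, with a log2 fold change of 0.26 to 0.33 and an adjusted p of at most 0.00337. Removing the GC trend called 3 members, adding STIM1 at 0.12 and ORAI1 at 0.20; the cause was not tested. Over the libraries left out, ORAI3 ran from -0.32 to 0.065, the latter without GSK-A1 replicate 1. The ORAI2/ORAI3 ratio difference turned to -0.047 without DMSO replicate 2 and to -0.16 or -0.00066 when GSK-A1 replicate 1 or 3 was left out, and ran from -0.16 to 0.25 over the libraries left out. Over the libraries left out, all genes called ran from 2163 to 4890, the calls among store-operated entry partners from 0 to 3, among IP3 receptor partners from 5 to 12, among ER pumps and buffers from 2 to 5 and among mitochondrial uptake genes from 0 to 2. Upper-quartile factors gave 1 entry partner and 3 ER genes, and library totals alone gave 1 entry partner. Mitochondrial uptake genes gave 1 call with no count filter, 1 with DESeq2, 1 with the replicate block and 2 with the GC trend removed. Under these settings 12%, 22.5%, 24.6% and 25.3% of all genes with an adjusted p were called. With upper-quartile factors, STIM1 stood at 0.033, STIM2 at -0.11, ITPR1 at -0.099 and ITPR2 at 0.053, and with the GC trend removed ORAI2 stood at -0.034 and ITPR2 at 0.057, none of these called. Calls were higher in 52.3% with TMM, 33.3% with upper-quartile factors, which moved the median of all genes by -0.04, and 62.4% with DESeq2.

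Same-numbered replicates did not deviate together (correlations 0.0109, 0.0190 and 0.0323), so the numbers were not taken as pairs. With the replicate block 4127 genes were called against 3835, SARAF stood at 0.30 (edgeR adjusted p = 1.24e-05), and no call among the 9 genes changed. The block together with the GC trend was not run, since the numbers do not pair the libraries. ITPR3 has no value with the filter of 1 CPM, and DESeq2 gave it no adjusted p. Depth limits ORAI3 and ITPR3, with 27 to 75 counts per library.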

Other observations

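Within the lists, some pairs of related genes were called in opposite directions. BCL2, which like BCL2L1 binds IP3 receptors, rose from a mean of 28.7 to 33.5 CPM (log2 fold change 0.22), while BCL2L1 fell by 0.21 on the log2 scale. ERLIN1 and ERLIN2 encode a complex that takes part in the degradation of activated IP3 receptors. ERLIN1 rose from 75.0 to 84.4 CPM (0.17) and ERLIN2 fell from 79.9 to 72.9 CPM (-0.13). The adjusted p with edgeR was above 0.05 without at least 1 library for each of these 4 genes, reaching 0.0568 for BCL2, 0.0668 for BCL2L1, 0.0738 for ERLIN1 and 0.191 for ERLIN2, and the differences between paired genes were not tested. The call of ERLIN2 was lost in 8 of 15 alternatives, among them RLE factors (adjusted p = 0.0616), no count filter (0.0572) and DESeq2 (0.0910). Of the IP3 receptor partners called higher, AHCYL1 and AHCYL2, which encode IRBIT and its relative, stood at 0.15 and 0.14, ITPRIP at 0.20 and ITPRID2 at 0.17. Each of those 4 calls was also lost without at least 1 library.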
